A study of Rattus norvegicus with 6 samples.

Results

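Leukocytes of the rat renal cortex were followed through 35 genes that mark them: 15 macrophage and myeloid genes, 13 genes of T cells and natural killer (NK) cells, 3 B-cell genes, 3 neutrophil genes and Ptprc, which encodes the pan-leukocyte phosphatase CD45. The set was a list of named genes, and each was taken from its brightest array probe. Of the 35, 31 had a probe that could be named through a RefSeq transcript, and 28 passed the filter on dim probes and were tested among 11742 genes. Itgax, Cd79a, Ms4a1 and Mpo had no probe named here. Cd163, Itgam and Cd5 had probes that were not well above background on all 3 arrays of either group, so no change is given for them. The comparison asks whether these transcripts differed between male Sprague-Dawley rats given 2-amino-4-nitrophenol, a nitroaromatic amine and hair dye ingredient, and male Sprague-Dawley rats given only corn oil. The rats were bought at 5 weeks of age. The treated group (n = 3) received 750 mg/kg/day for 4 weeks and the control group (n = 3) corn oil for the same time, and each animal's cortical RNA went onto 1 single-colour Agilent array. The labels name no sorting or enrichment of cells, so the arrays read whole cortex.

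Healthy kidney is not free of leukocytes. Its interstitium holds a network of resident macrophages that take up debris and present antigen, with fewer T cells and NK cells and very few B cells and neutrophils, and these populations grow when tubules are damaged. Macrophages are recognised by receptors for growth factor and bacterial products, by the complement protein C1q and by lysozyme. T cells carry the CD3 chains of the antigen receptor and the coreceptors CD4 or CD8, whereas NK cells and cytotoxic T cells share the granzymes and perforin. In bulk tissue, fewer cells of a type and less RNA per cell cannot be told apart.

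Values are log2 processed intensities relative to the 75th percentile of the array, so that 0 is the 75th percentile, and they compare arrays for 1 probe and not probes with each other. The share of probes well above background was 68.1% to 70.9% in the corn oil group and 61.6% to 66.3% in the treated group, and no probe was saturated. Corn oil replicate 2 was the only array on its slide, and the other 5 arrays shared a slide, so that replicate and that slide cannot be told apart. Of the markers of cortical cells, 8 of 8 proximal tubule markers and 5 of 5 podocyte markers passed the filter. So did 11742 of the 15278 genes with a named probe, so passing it is no check of the tissue label. Leukocyte RNA was measurable in the tissue, since 4 of the 5 Ptprc probes were well above background on all 6 arrays. The neutrophil and B-cell labels are thinly held, resting on 2 tested genes and 1 tested gene.

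No leukocyte marker passed the threshold of an adjusted p of 0.05 (limma with Benjamini-Hochberg adjustment over 11742 genes), a threshold that 3 genes in all passed (0.0255%). At an unadjusted p under 0.05 in limma, 4 of the 28 tested markers had higher values in the treated cortex, namely the 2 neutrophil genes S100a8 and S100a9, the B-cell gene Cd79b and the myeloid adaptor Tyrobp. That is 14.3% of the markers, and 14.3% of all genes were higher by the same measure. The T-cell genes Cd3e and Cd4 were the 2 lower ones, 7.14% of the markers beside 7.29% of all genes. Cd3e was well above background on 3 corn oil arrays and 1 treated array. It thus passed the filter through the corn oil group alone, and its lower call is not read as a result. The values of the 3 treated animals lay wholly above those of the 3 corn oil animals for 5 markers (17.9%; 20.1% of all genes) and wholly below for 1 (3.57%; 10.1% of all genes). Both counts therefore stand at or under the share over all genes, and the markers as a whole give no count above it. The split of 4 higher to 2 lower became 7 to 1 under normexp background correction, where 17.9% of all genes were higher and 5.07% lower. The 1 lower marker there was Csf1r, and neither Cd3e nor Cd4 was among them. The split became 1 to 5 when arrays were scaled on spike-in controls, which shifted the median over all genes by -0.32 (log2) and gave 1.01% of all genes higher and 20.6% lower.

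The classes had medians of different sign and size. The median log2 change was 0.17 over the 12 macrophage genes (-0.15 after spike-in scaling, which is 0.13 above the median of all genes there), -0.14 over the 12 T and NK genes, 1.01 over the 2 neutrophil genes and 0.81 for the B-cell gene, beside 0.04 over all genes tested. The T and NK median changed sign to 0.09 after normexp background correction and was -0.37 without corn oil replicate 2. Differences between classes were not tested.

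**Figure D1:**
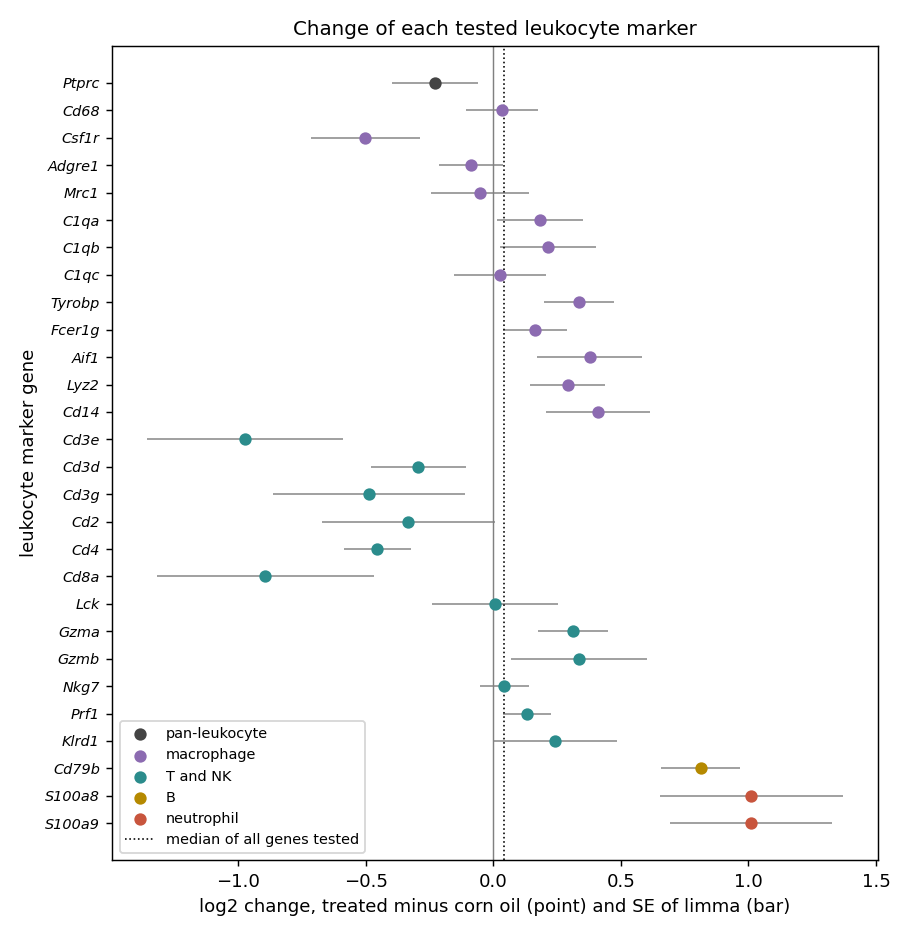
Log2 change (treated minus corn oil, horizontal axis) of the 28 tested leukocyte markers, with points coloured by class, bars giving the standard error of limma (n = 3 per group) and the dotted line the median of all genes tested at 0.04. S100a8, S100a9 and Cd79b lie at 0.81 to 1.01, the CD3 and coreceptor genes and Cd2 lie to the left of 0 (Cd2 at 0.15 with normexp correction), and most macrophage genes lie between -0.09 and 0.41.

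Leukocyte genes are classically driven by lineage factors that bind close to the start of transcription, PU.1 and C/EBP proteins in myeloid cells and RUNX proteins in T and NK cells. Promoter sequences of RefSeq on the GRCr8 assembly were matched for 26 of the 35 genes and read over the 150 bases before the start. Aif1, C1qc, Cd4, Cd79b, Fcer1g, Klrd1, Ms4a1, S100a8 and Tyrobp had no entry. A few are printed so that the letters behind the motif counts of each class can be read. The 3 motifs were searched on both strands, and a match is a description of the letters only. GAGGAA, the core bound by PU.1, was found in 7 of 11 macrophage promoters and 2 of 11 T and NK promoters, beside 14.5% of 33469 promoters of the same length. TGTGGT, the RUNX core, was found in 2 of 11 macrophage and 6 of 11 T and NK promoters, beside 8.38% of all. TTNNGNAA, a loose C/EBP core, was found in 6 of 11 macrophage promoters and 1 of 11 T and NK promoters, beside 23.3% of all. Where letters of 2 motifs overlap, both were counted. In the sequences, capitals mark every match of the 3 motifs, 5′ to 3′ along the gene.

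The macrophage genes shown are C1qb at chr5:154407828-154407977 (minus strand), Lyz2 at chr7:54798012-54798161 (minus strand) and Csf1r at chr18:56834229-56834378 (plus strand), each with 1 match to the PU.1 core. It lies 90, 46 and 95 bases before the start in C1qb, Lyz2 and Csf1r, counted from the first base of the match.
C1qb: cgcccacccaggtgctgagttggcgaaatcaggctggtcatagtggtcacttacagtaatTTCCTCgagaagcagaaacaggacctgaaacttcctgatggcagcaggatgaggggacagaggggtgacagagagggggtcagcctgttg
Lyz2: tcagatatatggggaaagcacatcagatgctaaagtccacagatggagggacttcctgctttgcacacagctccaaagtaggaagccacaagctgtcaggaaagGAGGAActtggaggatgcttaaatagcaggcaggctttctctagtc
Csf1r: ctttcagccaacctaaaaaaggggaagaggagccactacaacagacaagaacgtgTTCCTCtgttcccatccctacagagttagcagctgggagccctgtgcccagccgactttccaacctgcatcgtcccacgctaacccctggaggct

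The T and NK genes shown are Cd3e at chr8:54211771-54211920 (minus strand), with 1 PU.1 core and 0 RUNX cores, and Gzma at chr2:46485697-46485846 (minus strand) and Prf1 at chr20:29788890-29789039 (plus strand), each with 1 RUNX core. S100a9, at chr2:178490623-178490772 (minus strand), is the neutrophil gene, also with 1 RUNX core.
Cd3e: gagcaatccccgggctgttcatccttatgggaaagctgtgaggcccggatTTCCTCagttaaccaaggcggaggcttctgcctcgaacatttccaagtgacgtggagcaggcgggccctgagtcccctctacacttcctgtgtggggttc
Gzma: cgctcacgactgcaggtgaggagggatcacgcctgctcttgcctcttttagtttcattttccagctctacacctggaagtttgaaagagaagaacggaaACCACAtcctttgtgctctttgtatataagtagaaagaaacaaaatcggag
Prf1: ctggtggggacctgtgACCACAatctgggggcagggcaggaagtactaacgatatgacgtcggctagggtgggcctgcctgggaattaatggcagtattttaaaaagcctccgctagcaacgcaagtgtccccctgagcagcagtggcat
S100a9: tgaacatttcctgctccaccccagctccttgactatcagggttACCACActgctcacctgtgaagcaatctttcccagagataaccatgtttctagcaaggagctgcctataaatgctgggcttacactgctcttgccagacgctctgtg

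The macrophage genes had small changes, none past the adjusted threshold, and treated replicate 2 was the highest array for most of them. C1qa, C1qb and C1qc encode the 3 chains of C1q, which starts the classical complement pathway and is made mainly by tissue macrophages. C1qb had log2 values of 2.87, 2.84 and 3.00 on corn oil replicates 1, 2 and 3 and 2.75, 3.49 and 3.11 on treated replicates 1, 2 and 3. C1qa had 1.73, 1.85 and 1.80 on corn oil against 1.68, 2.33 and 1.91 on treated arrays. C1qc had 0.27, 0.22 and 0.23 on corn oil against -0.03, 0.67 and 0.18 on treated arrays. In each of the 3 chains treated replicate 2 was the highest array and treated replicate 1 the lowest, and the groups overlapped. The log2 changes were 0.21 ± 0.19 (SE, n = 3 per group), 0.18 ± 0.17 and 0.03 ± 0.18 for C1qb, C1qa and C1qc, and the second probe of each gene gave 0.12, 0.12 and 0.04. With spike-in scaling the 3 changes were -0.11, -0.14 and -0.29, beside a median of -0.28 over all genes there. The SD between corn oil animals was 0.02 to 0.08 for the 3 chains, against 0.33 to 0.37 between treated animals.

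The signalling adaptors Tyrobp and Fcer1g and the activation marker Aif1 were also highest on treated replicate 2. Tyrobp encodes DAP12, the adaptor that carries the signal of many activating myeloid receptors. Its values were 3.05, 3.04 and 3.11 on the corn oil arrays and 3.13, 3.63 and 3.43 on the treated arrays, so that the groups did not overlap, though treated replicate 1 exceeded the highest corn oil array by little. The log2 change was 0.33 ± 0.14 (limma, unadjusted p = 0.0489, adjusted p = 0.229). Fcer1g, the gamma chain that Fc receptors share, had 2.24, 2.34 and 2.19 on corn oil against 2.17, 2.56 and 2.52 on treated arrays, a log2 change of 0.16 ± 0.13. Aif1 encodes IBA1, an actin-binding protein used to stain macrophages. It had 2.78, 2.87 and 2.73 on corn oil against 2.76, 3.59 and 3.16 on treated arrays, and its 3 probes gave changes of 0.38 to 0.41. For Fcer1g and Aif1 the groups overlapped through treated replicate 1 alone, which lay inside or below the corn oil range. Without treated replicate 1, the log2 change of Aif1 was 0.58 ± 0.15 and that of Tyrobp 0.47 ± 0.10 (limma, adjusted p = 0.0801 and 0.0677). Without treated replicate 2, that of Aif1 was 0.17 ± 0.14 and that of Tyrobp 0.22 ± 0.11, and Tyrobp was no longer at an unadjusted p under 0.05 (limma, adjusted p = 0.540 and 0.355).

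Lysozyme, the CD14 receptor and lysosomal CD68 gave no clearer separation. Lyz2, which encodes lysozyme, had 5.85, 6.23 and 6.06 on corn oil against 6.28, 6.57 and 6.17 on treated arrays, a log2 change of 0.29 ± 0.15 (adjusted p = 0.297 in limma). Cd14, the coreceptor for bacterial lipopolysaccharide that injured tubule cells can also express, had -0.35, -0.84 and -0.72 on corn oil against 0.10, -0.22 and -0.56 on treated arrays. Its change was 0.41 ± 0.20, and 0.50 from its dimmer probe. Cd14 and Mrc1 were the 2 tested macrophage genes in which treated replicate 1, not 2, was the highest treated array. Cd68, a lysosomal glycoprotein of phagocytes, had 0.71, 0.73 and 0.78 on corn oil against 0.47, 0.96 and 0.89 on treated arrays and a change of 0.03 ± 0.14. The corn oil animals lay within the spread of the treated animals for Cd68, so the groups were not separated.

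The receptor genes Csf1r, Adgre1 and Mrc1 had changes below 0, none past the threshold, and Mrc1 was at 0.12 with normexp correction. Csf1r, the receptor for the growth factor on which macrophages depend, had -1.01, -1.47 and -1.07 on corn oil against -2.08, -1.38 and -1.59 on treated arrays. The log2 change was -0.50 ± 0.21 (limma, unadjusted p = 0.0566, adjusted p = 0.242) and -0.44 from its other probe. On the brighter probe, treated replicate 2 lay just above the lowest corn oil array, and treated replicates 1 and 3 lay below all corn oil arrays. The other probe had -1.52, -1.87 and -1.34 on corn oil and -1.92, -1.93 and -2.21 on treated arrays, without overlap by a small margin. With the mean over both probes, Csf1r had -0.47 (limma, adjusted p = 0.196) and was lower at an unadjusted p under 0.05. Adgre1, which encodes F4/80, had -0.64, -0.34 and -0.34 on corn oil against -0.55, -0.37 and -0.66 on treated arrays, a change of -0.09 ± 0.12. Mrc1, the mannose receptor, had -2.51, -2.95 and -2.32 against -2.43, -2.65 and -2.85, a change of -0.05 ± 0.19. A second Mrc1 probe exceeded background well on 3 corn oil and 0 treated arrays, so close to background that no bound on a fold could be set. That probe had -6.04, -5.42 and -5.60 on corn oil and -6.15, -7.27 and -7.34 on treated arrays, without overlap. With the mean over both probes, Mrc1 had a change of -0.64 (limma, adjusted p = 0.200) and was lower at an unadjusted p under 0.05. The dimmer probe passed the filter through the corn oil group alone. Neither its lack of overlap nor the lower call is therefore read as a result. On the brightest probe, neither Adgre1 nor Mrc1 separated the groups. Cd163, the haemoglobin scavenger receptor, was well above background on 0 of the 6 arrays with each of its 3 probes, and Itgam, which encodes CD11b, on corn oil replicate 3 only.

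Over the 12 tested macrophage genes, treated replicate 2 was the highest of the treated arrays in 10 and treated replicate 1 the lowest in 8. Among all genes tested, 46.4% had treated replicate 2 highest of the treated arrays and 45.0% had treated replicate 1 lowest. With each gene set to its mean in corn oil animals, the macrophage median stood at -0.10, 0.42 and 0.12 in treated replicates 1, 2 and 3. In the 3 corn oil animals it stood at -0.02, -0.01 and 0.02. The median log2 change was 0.02 without treated replicate 2 and 0.27 without treated replicate 1, against 0.17 with all arrays. Fibroblast markers took the same order: 7 of 7 had treated replicate 2 highest and replicate 1 lowest, with a list median of -0.38, 0.43 and 0.15 and a summed signal of 21.9 to 39.6 on treated arrays against 25.6 to 28.4 on corn oil arrays, in units of the array's 75th percentile. Cell division markers were also highest on treated replicate 2 in 5 of 5, with a summed signal of 2.70 to 7.32 on treated arrays and 1.81 to 3.49 on corn oil arrays. The part of these cells in the macrophage values was not tested.

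**Figure D2:**
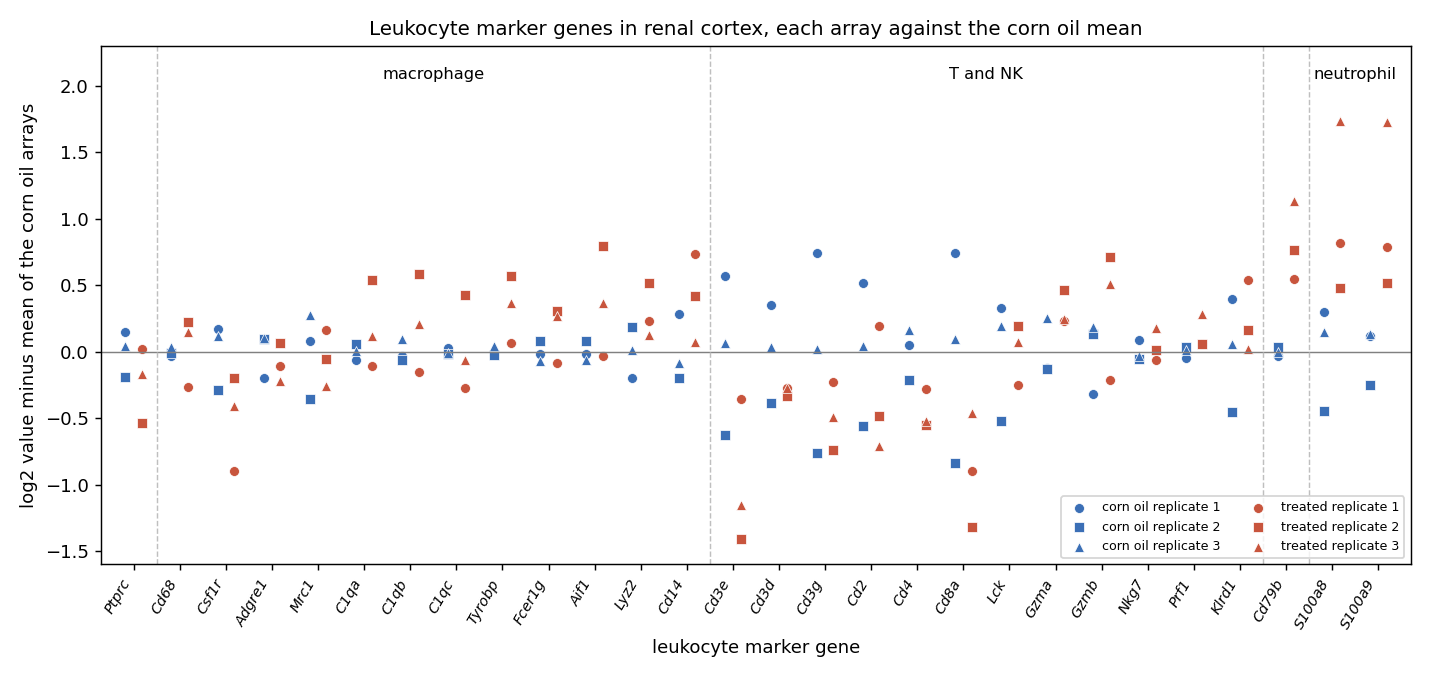
Log2 value of each of the 28 tested markers on each of the 6 arrays, minus the mean of the 3 corn oil arrays of that gene (vertical axis), with blue points for corn oil, red for treated and a symbol for each replicate. Treated replicate 2 (red squares) tops most macrophage genes, corn oil replicates 1 and 2 (blue circles and squares) are far apart in the CD3 genes and Cd8a, and the 3 treated points lie above the corn oil points in Cd79b, S100a8 and S100a9.

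Other macrophage genes, from a list of 30 that held no member, gave both signs. Of the 19 tested, 0 passed at an adjusted p of 0.05 and 0 at an unadjusted p under 0.05, 13 had changes above 0 and 6 below, and the median log2 change was 0.08. Cybb, the catalytic subunit of the phagocyte NADPH oxidase, had the lowest p of them, at -0.29 ± 0.12 (adjusted p = 0.237). Its values of -3.01, -3.06 and -2.94 on corn oil did not overlap -3.54, -3.14 and -3.20 on treated arrays. Cx3cr1, the fractalkine receptor of resident renal macrophages, had 0.28 ± 0.14 (adjusted p = 0.301). The pair thus pointed in opposite directions, as Csf1r and Tyrobp did among the members.

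CD45 itself had a change below 0 on every probe without reaching the threshold. The brightest Ptprc probe had 0.09, -0.25 and -0.02 on corn oil and -0.04, -0.60 and -0.23 on treated arrays, a log2 change of -0.23 ± 0.17 (adjusted p = 0.455 in limma). The other 4 probes gave changes of -0.32 to -0.73. The widest came from a probe with -2.61, -2.70 and -2.65 on corn oil and -2.93, -3.80 and -3.44 on treated arrays, where the groups did not overlap. The probes thus shared a sign and differed in size. With the mean over probes, Ptprc had -0.43 (limma, adjusted p = 0.210) and was lower at an unadjusted p under 0.05, and without treated replicate 2 it had -0.07 on the brightest probe. Treated replicate 2, which was highest for most macrophage genes, was the lowest array for the brightest Ptprc probe. CD45 splice forms differ between leukocyte lineages, and which forms each probe reads was not assessed.

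Of 16 other pan-leukocyte genes tested, 9 had changes above 0 and 7 below, with a median log2 change of 0.04, the value over all genes. Cd52, a small surface glycoprotein of lymphocytes and other leukocytes, had -1.90, -2.36 and -2.26 on corn oil against 0.72, -1.54 and -0.06 on treated arrays. That is a log2 change of 1.87 ± 0.55 (3.67-fold; adjusted p = 0.153), wider than that of any member, with all 3 treated arrays above the corn oil arrays. Inpp5d, which encodes the inositol phosphatase SHIP1, had -0.32 ± 0.09 (adjusted p = 0.154), also without overlap. Cd52 was highest on treated replicate 1, where most macrophage genes were lowest.

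Among the T-cell genes, Cd3e, Cd3d, Cd3g, Cd4 and Cd8a of the receptor complex and its coreceptors and the adhesion receptor Cd2 had changes below 0, none past the adjusted threshold. They were grouped after their values were seen, so the sign of their median of -0.47 was set by the grouping. Its size was -0.17 with normexp correction and -0.79 with spike-in scaling. Relative to the median of all genes it was -0.51 in the main fit and -0.51 with spike-in scaling. Cd4, the coreceptor of helper T cells that rat macrophages also carry, had -2.84, -3.10 and -2.72 on corn oil and -3.17, -3.44 and -3.41 on treated arrays. The groups did not overlap, and the log2 change was -0.45 ± 0.13 (limma, unadjusted p = 0.0133, adjusted p = 0.153), with -0.72 from its dimmer probe. That probe was well above background on 2 of the 3 treated arrays. It had -4.75, -5.40 and -4.81 on corn oil and -5.23, -6.74 and -5.14 on treated arrays, with overlap. With normexp correction the change of the brighter Cd4 probe was -0.08 (limma, adjusted p = 0.574). Cd3e, the epsilon chain of CD3, had -3.85, -5.04 and -4.35 on corn oil and -4.77, -5.82 and -5.57 on treated arrays, a change of -0.97 ± 0.38 (adjusted p = 0.218). With normexp correction it was -0.09 (limma, adjusted p = 0.639), so that neither Cd4 nor Cd3e kept its unadjusted call there. Cd3e was well above background on 1 of the 3 treated arrays and on all 3 corn oil arrays. It thus passed the filter through the corn oil group alone, as Cd2 did, and its unadjusted call is not read as a result. Treated replicate 1 lay between the corn oil arrays, so the groups overlapped.

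Cd8a, the alpha chain of the coreceptor of cytotoxic T cells, was at -0.89 with the main processing and -0.25 with normexp correction. Its values were -2.72, -4.31 and -3.37 on corn oil and -4.36, -4.79 and -3.93 on treated arrays, the change having an SE of 0.42 (adjusted p = 0.278). Cd3g, the gamma chain of CD3, had -0.46, -1.97 and -1.18 on corn oil and -1.43, -1.94 and -1.69 on treated arrays, and Cd3d, the delta chain, 0.33, -0.41 and 0.01 against -0.30, -0.36 and -0.30. In both, the treated animals were alike and lay within the span of the corn oil animals, above corn oil replicate 2. The changes were -0.49 ± 0.38 for Cd3g and -0.29 ± 0.19 for Cd3d. Cd2, an adhesion receptor of T and NK cells, had -4.42, -5.49 and -4.90 against -4.74, -5.42 and -5.65, a change of -0.33 ± 0.34 that was 0.15 with normexp correction. Lck, the kinase that phosphorylates CD3, had -3.81, -4.66 and -3.95 against -4.39, -3.95 and -4.07, a change of 0.01 ± 0.25. The Lck change was -0.31 after spike-in scaling, beside a median of -0.28 over all genes there. Cd5, a brake on receptor signalling, was well above background on corn oil replicates 1 and 3 and treated replicate 1 only.

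The corn oil animals were spread widely in these genes. In 5 of these 6 genes, corn oil replicate 1 had the highest and corn oil replicate 2 the lowest value of the corn oil arrays, and in 8 of all 12 tested T and NK genes. Over all genes tested, 22.7% showed that order. Relative to the corn oil mean, their median was 0.54, -0.59 and 0.05 on corn oil replicates 1, 2 and 3, and -0.28, -0.65 and -0.51 on the treated arrays, so that corn oil replicate 2 lay among the treated animals. The SD among corn oil animals was 0.76 for Cd3g and 0.80 for Cd8a, against 0.26 and 0.43 among treated animals. Cell division markers showed the order in 5 of 5 and other pan-leukocyte genes in 11 of 16, whereas 3 of 12 macrophage members and 1 of 9 endothelial markers did. Corn oil replicate 2 was also the array on the second slide, and the part of the slide in its low values cannot be told apart from that animal's.

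The T-cell values depended on that array. Without corn oil replicate 2, which equals the fit with slide as a block, the members at an unadjusted p under 0.05 were Cd3e, Cd3d, Cd3g, Cd4, Cd8a and Csf1r, all lower, and Cd79b, higher. Of all genes, 5.45% were then lower and 9.57% higher by that measure. The changes were -1.29 ± 0.35 for Cd3e, -1.31 ± 0.32 for Cd8a, -0.87 ± 0.27 for Cd3g and -0.49 ± 0.13 for Cd3d, and the 6 lower genes had adjusted p of 0.262 to 0.311 in limma. No member passed the adjusted threshold there either. Cd3e passed the filter through the corn oil group alone, so its place among the lower genes is not read as a result. Without corn oil replicate 1, the highest array for most of these genes, Cd4 alone was lower at an unadjusted p under 0.05 (5.29% of all genes). The median of the 6 genes was then -0.27.

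Other T-cell genes gave both directions. Of 21 tested genes on a list of 28 without members, 12 had changes above 0 and 9 below, with a median of 0.08. By unadjusted p under 0.05 there were 4 higher genes and 0 lower ones (0 by adjusted p in limma). Of all genes, 14.3% were higher and 7.29% lower by that unadjusted measure. The lowest p belonged to Skap1, an adaptor of receptor signalling, at 0.59 ± 0.12 (adjusted p = 0.118), and to Ccl5, a chemokine of T and NK cells, at 0.35 ± 0.10 (adjusted p = 0.152). Neither overlapped between the groups. Receptor partners were picked with their values in view: Cd8b, the beta chain of CD8, had -0.72 ± 0.41, and Cd247, the zeta chain of the receptor complex, had -0.32 ± 0.28. Neither passed, and being picked they add nothing to the list's counts.

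The cytotoxic genes Gzma, Gzmb, Nkg7, Prf1 and Klrd1 had a median log2 change of 0.24 (-0.08 after spike-in scaling, and 0.20 above the median of all genes in both settings). They too were grouped after their values were seen, and their difference from the CD3 and coreceptor genes was not tested. Gzma, which encodes granzyme A, a serine protease of killer cell granules, had -2.97, -2.97 and -2.59 on corn oil and -2.62, -2.38 and -2.60 on treated arrays. Its change was 0.31 ± 0.14 (limma, unadjusted p = 0.0599, adjusted p = 0.248), and corn oil replicate 3 alone overlapped the treated arrays. Gzmb, granzyme B, had -4.57, -4.12 and -4.07 against -4.47, -3.54 and -3.74, a change of 0.34 ± 0.27, and its 3 probes ranged from 0.04 to 0.37. Prf1, the pore protein perforin, had -1.88, -1.79 and -1.81 on corn oil and -1.77, -1.77 and -1.54 on treated arrays. The Prf1 groups did not overlap, by a margin far smaller than the spread of the treated arrays, and the change was 0.13 ± 0.09 (adjusted p = 0.441).

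Nkg7, a granule membrane protein, had -0.48, -0.62 and -0.60 on corn oil and -0.63, -0.55 and -0.39 on treated arrays, a change of 0.04 ± 0.10 that was level with all genes. Klrd1 encodes CD94, the partner of inhibitory and activating NK receptors. It had -4.16, -5.01 and -4.49 against -4.02, -4.39 and -4.53, a change of 0.24 ± 0.24. Its other probe gave 0.86, and there treated replicate 1 stood at -2.75 against -5.10 and -4.28 on the other treated arrays. The CD94 values thus overlapped on the brighter probe and rested on 1 array on the dimmer one.

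**Figure D3:**
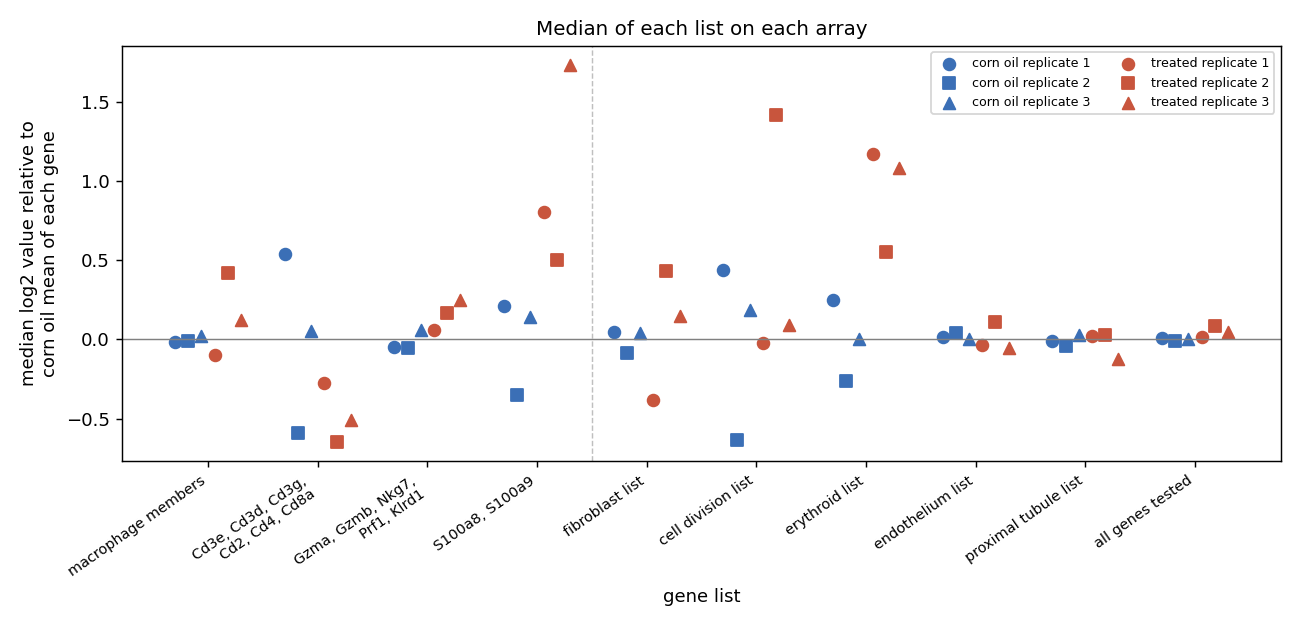
Median over the genes of each list of the log2 value relative to the corn oil mean of each gene (vertical axis), 1 point per array, for 4 groups of leukocyte markers (left of the dashed line), for lists of other cell types and for all genes tested. The treated medians of the CD3 and coreceptor genes with Cd2 (-0.28 to -0.65) lie within the corn oil span of -0.59 to 0.54 or just below it, treated replicate 2 is highest in the macrophage, fibroblast and cell division lists, and the erythroid and S100a8 and S100a9 medians of the treated arrays lie above all corn oil medians.

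Cd79b, a signalling chain of the B-cell antigen receptor, had the lowest p of all 28 tested markers and was the 1 B-cell member measured. Its values were -4.94, -4.87 and -4.91 on the corn oil arrays and -4.36, -4.14 and -3.77 on the treated arrays. The groups did not overlap, and the log2 change was 0.81 ± 0.15 (1.76-fold; limma, unadjusted p = 0.00171, adjusted p = 0.112). It kept its sign under all 17 alternatives (0.48 to 0.95, adjusted p 0.0646 to 0.344 in limma). Several of these, such as the replicate block and the trend and robust settings, leave the change at 0.81 by design. The signal of Cd79b was in the dimmest decile of the genes tested, though well above background on all 6 arrays. No second probe and no other B-cell member could be set beside it.

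The wider B-cell list gave both signs. Of 8 other B-cell and plasma cell genes tested, 5 had changes above 0 and 3 below, with a median of 0.28. Fcer2, the low-affinity IgE receptor of B cells, had 0.39 ± 0.13 (adjusted p = 0.172) and Vpreb3, a pre-B-cell receptor chaperone, -0.66 ± 0.25 (adjusted p = 0.202). Neither gene's groups overlapped, and the signs were opposite.

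The neutrophil members S100a8 and S100a9 each had a change of 1.01, past no adjusted threshold. With spike-in scaling, which shifted the median over all genes by -0.32 to -0.28, both were at 0.69. Cd3e and Cd8a were then at -1.29 and -1.21, values that include that shift. The median of the pair stood 0.97 above that of all genes both in the main fit and with spike-in scaling. S100a8 and S100a9 encode the 2 subunits of calprotectin, a calcium- and zinc-binding complex that fills the cytosol of neutrophils and is also made by monocytes. S100a9 had -1.37, -1.74 and -1.36 on corn oil and -0.70, -0.97 and 0.24 on treated arrays, a log2 change of 1.01 ± 0.32 (2.01-fold; limma, unadjusted p = 0.0183, adjusted p = 0.167). S100a8 had -2.20, -2.94 and -2.34 on corn oil and -1.67, -2.01 and -0.75 on treated arrays, a change of 1.01 ± 0.36 (2.02-fold; adjusted p = 0.191). In both genes the 3 treated arrays lay above the 3 corn oil arrays, treated replicate 3 was the highest and corn oil replicate 2 the lowest. Without treated replicate 3, the median change of the pair was 0.65, and without corn oil replicate 2 it was 0.84, with neither gene at an unadjusted p under 0.05 then (limma, adjusted p = 0.347 for S100a9 and 0.387 for S100a8). Each kept its sign under all 17 alternatives, several of which leave the change as it was by design.

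Other neutrophil genes gave both signs. Of 14 on the list, 5 passed the filter on dim probes, with 2 above 0, 3 below and a median of -0.07. Padi4, the histone deiminase of neutrophil nuclei, had 0.91 ± 0.16 (limma, adjusted p = 0.105), with a signal in the dimmest decile of the genes tested. Its values ran from -5.28, -5.45 and -4.98 on corn oil to -4.56, -4.26 and -4.16 on treated arrays, without overlap. Mmp9, the gelatinase of neutrophil granules, had -0.55 ± 0.44 (adjusted p = 0.493). Csf3r, the receptor for the neutrophil growth factor, was named after its value was seen and had 0.0006 ± 0.24. Red cell markers were higher on the same arrays as the calprotectin genes: 4 of 5 tested erythroid markers were higher at an unadjusted p under 0.05 in limma, beside 14.3% of all genes. Their summed signal was 401 to 570 on corn oil and 715 to 971 on treated arrays. Treated replicate 2 was lowest of the treated arrays in that sum (971, 715 and 970 on replicates 1, 2 and 3) and in both calprotectin genes. The part of blood in these values was not tested.

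No mast cell, eosinophil or dendritic cell gene passed the adjusted threshold. Of 4 mast cell and eosinophil genes tested, 0 were at an unadjusted p under 0.05, and the 2 with the lowest p were Tpsab1, a mast cell tryptase, at -0.08 ± 0.10, and Hdc, which makes histamine, at 0.06 ± 0.09. Of 6 dendritic cell genes, 5 had changes below 0, with a median of -0.25, and 2 were lower at an unadjusted p under 0.05, beside 7.29% of all genes. Ccr7, the receptor that guides dendritic and naive T cells to lymph nodes, had -0.997 ± 0.39, and Irf8, a factor required for some dendritic cells, -0.50 ± 0.20 (limma, adjusted p = 0.220 and 0.231). Both lay in the dimmest decile, and Irf8 overlapped between groups while Ccr7 did not. Ccr7 stood at -6.47 on treated replicate 2, where the lowest value well above background was -5.06. It therefore passed the filter through the corn oil group alone. Neither its lack of overlap nor its place among the 2 lower genes is read as a result.

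Signal strength moved with the changes. Among all genes tested, grouped in deciles of mean signal, the median log2 change climbed from -0.12 in the dimmest decile to 0.23 in the brightest. Of the markers, Cd3e, Cd2, Lck, Gzmb, Klrd1 and Cd79b were in the dimmest decile and Cd4 and Cd8a in the next, where the median over all genes was -0.05. C1qb, Tyrobp and Aif1 were in the ninth decile, with a median over all genes of 0.13, and Lyz2 in the brightest. The bright genes had changes of 0.21 (C1qb), 0.29 (Lyz2), 0.33 (Tyrobp) and 0.38 (Aif1). The dim genes ran from -0.97 (Cd3e) and -0.89 (Cd8a) through 0.01 (Lck), 0.24 (Klrd1) and 0.34 (Gzmb) to 0.81 (Cd79b). After quantile normalization the macrophage median was 0.06 and that of the CD3 and coreceptor genes -0.44. The part of signal strength in single genes was not tested.

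**Figure D4:**
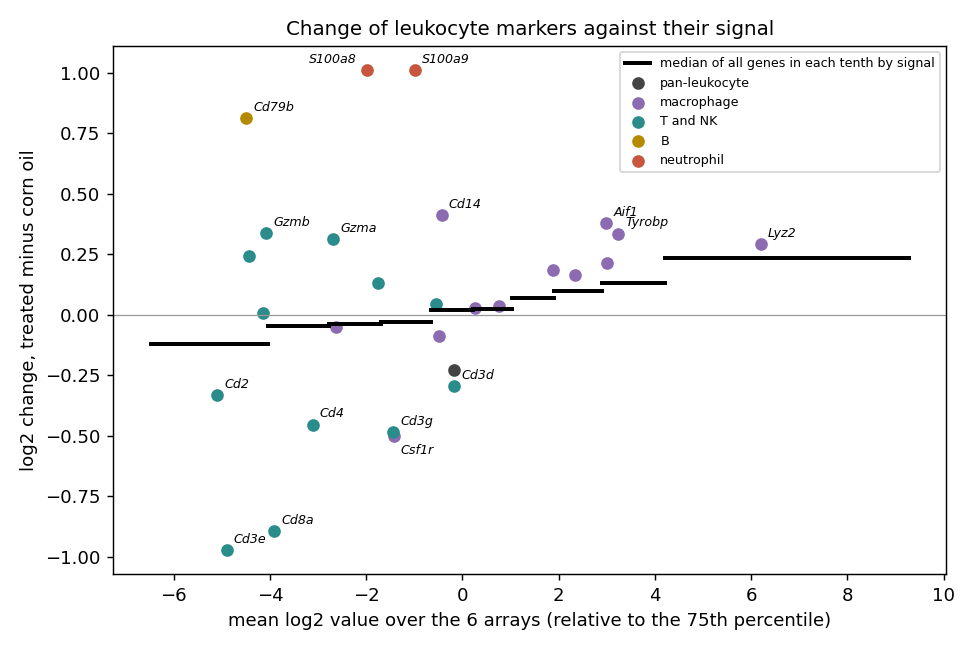
Log2 change (treated minus corn oil, vertical axis) of the 28 tested markers against their mean log2 value over the 6 arrays (horizontal axis), coloured by class, with black bars for the median change of all genes in each decile of signal. The bars climb from -0.12 to 0.23, S100a8, S100a9 and Cd79b lie at 0.81 to 1.01, and Cd3e and Cd8a lie at -0.97 and -0.89 (-0.09 and -0.25 with normexp correction).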

How the data were processed

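Cortical RNA of 6 rats (3 corn oil, 3 treated) was labelled with Cy3 and read on single-colour arrays, 1 per animal. Per the file headers, intensity comes from Agilent Feature Extraction 10.7.1.1 (10.7 in the submitters' processing notes), and the deposited processed intensity is background-subtracted, detrended and linear. The authors' value table is a deposited ratio of that intensity to the array's 75th percentile: a column equals the processed intensity of a differently numbered animal in the same group (log2 differences had an SD of at most 0.0004 over 36961 probes, and of 0.293 to 0.500 under equal numbers), so replicate numbers follow the scanner files.

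From the 61657 non-control probes, log2 processed intensity minus the 75th percentile was used. Outlier-flagged probes (64) were dropped. A probe had to be well above background throughout 1 group or both (40894 probes). Genes were named through unversioned RefSeq accessions that point to 1 gene of the GRCr8 table (27447 probes, 15278 genes), and the brightest kept probe stood for a gene. The comparison used limma 3.58.1 (lmFit, eBayes; R 4.3.3) with no block, with Benjamini-Hochberg adjustment over 11742 genes. p-values rest on the spread between 3 animals per group, which limma moderates toward that of all genes tested. The number of animals limits every value. The spread of the corn oil group also holds the slide of replicate 2. The fit was tested on simulated data with independent noise and planted changes larger than that of any marker. That test does not show whether changes of the markers' size would be found. Same-numbered arrays of the groups did not deviate together (correlations of 0.01, -0.05 and -0.03).

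The alternatives were normexp background correction on median signals (offset 50), quantile normalization, median centring, spike-in scaling (7 probes), the authors' table, 2 other filters, a replicate block, the slide as a block, the mean over probes, trend and robust settings, and leaving out each array. All markers were named whatever their values, as were the 2 genes with the lowest p of each other leukocyte list, and exceptions are marked. The markers and lists were chosen with earlier results of these data known.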

Additional observations from a re-analysis of the deposited data

How the results depend on the processing

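No marker passed an adjusted p of 0.05 under any of the 17 alternatives, where the lowest adjusted p of a marker ranged from 0.0646 to 0.344. The count of all genes called was 3, against 56 after normexp correction, 9 after spike-in scaling, 69 with trend and robust settings, and 0 with no filter, the replicate block, the slide as a block or the mean over probes (1764 to 3494 genes at an unadjusted p under 0.05), and 0 to 70 leaving out single arrays, with 70 without treated replicate 2, 21 without treated replicate 1 and 0 without each corn oil array (1533 to 1764 at an unadjusted p under 0.05). At an unadjusted p under 0.05, higher markers (4; 14.3% of all genes) numbered 7 after normexp correction (17.9%), 1 after spike-in scaling (1.01%), 1 with the slide as a block (9.57%), and 1 to 8 leaving out arrays (8.51% to 20.0%). Lower markers (2, Cd3e and Cd4; 7.29% of all genes) numbered 1 after normexp correction (Csf1r; 5.07%), 5 after spike-in scaling (20.6%), 1 with no filter (5.23%), 1 when all 6 arrays had to be well above background (6.81%), 6 with the slide as a block (5.45%), 4 with the mean over probes (8.69%), and 1 to 6 leaving out arrays (4.55% to 10.69%). Higher and lower numbered 5 and 3 with the replicate block (11.5% and 6.59% of all genes), which the pairing check did not call for.

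Spike-in scaling gave medians of -0.23 for all markers, -0.15 for macrophage genes and -0.46 for T and NK genes, and 0.49 for Cd79b, which had 0.48 after normexp correction. It turned the sign of C1qa (-0.14), C1qb (-0.11), C1qc (-0.29), Cd68 (-0.28), Fcer1g (-0.15), Gzma (-0.0058), Klrd1 (-0.078), Lck (-0.31), Lyz2 (-0.028), Nkg7 (-0.28) and Prf1 (-0.19), and its shift of all genes was -0.32. Normexp correction turned Cd2 (0.15) and Mrc1 (0.12), and the slide block turned Lck (-0.26). Leaving out arrays, C1qc ranged from -0.17 to 0.18, Cd68 from -0.058 to 0.19, Lck from -0.26 to 0.17, Mrc1 from -0.23 to 0.088 and Nkg7 from -0.026 to 0.097. Slide blocking took the T and NK median to -0.37, and it was above 0 after normexp correction (0.09), with no filter (0.0057), with a filter on all 6 arrays (0.02) and without corn oil replicate 1 (0.0059). The cause of these shifts was not tested. Cd3e and Cd2, each well above background on 1 of the 3 treated arrays, passed the filter through the corn oil group alone. Their SEs were 0.38 and 0.34 in the main fit. Lower calls of Cd3e, and of Mrc1 with the mean over probes, rest at least in part on such a probe. They are not read as results. The widest SE of a marker, 0.42, was that of Cd8a, which was well above background on all 6 arrays.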

Other observations

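Tbx21, which encodes the T-bet factor of T and NK cells, stood out among the other T and NK genes in that its probe lay in the brightest decile of all genes tested. It had log2 values of 5.69, 5.79 and 5.84 on corn oil and 5.90, 6.52 and 6.27 on treated arrays, a log2 change of 0.46 ± 0.16 without overlap (limma, adjusted p = 0.191). What else that probe may read was not tested. It was named after its values were seen.

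Fcrla, an Fc receptor-like gene of B cells, had -0.49 on treated replicate 1 against -2.72 and -2.83 on the other treated arrays and -2.70, -3.12 and -2.86 on the corn oil arrays. Vav1, a guanine nucleotide exchange factor of leukocytes, had -1.78 on treated replicate 3 against values of -3.54 to -4.02 on the other 5 arrays. These were chosen after their values were seen.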
